A study of Mus musculus with 3 samples.

Results

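The interferon gamma axis was followed through 8 genes in immune cells of the mouse infrarenal aorta, with and without induced abdominal aortic aneurysm (AAA). The 8 genes, of 32285 in the files, were taken by symbol. They were the cytokine Ifng, its receptor genes Ifngr1 and Ifngr2, the transcription factors Irf1 and Tbx21, the chemokines Cxcl9 and Cxcl10, and the chemokine receptor gene Cxcr3. All 8 were found. At least 1 UMI (unique molecular identifier, the count of 1 captured RNA molecule) of any of them was present in 4270 of 5286 cells of the library AAA_14, in 2302 of 3229 cells of AAA_7 and in 692 of 1235 cells of Sham.

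Interferon gamma is secreted mainly by activated T cells and natural killer (NK) cells. It binds a receptor made of the chains encoded by Ifngr1, which holds the ligand, and Ifngr2, which completes signalling through the kinases Jak1 and Jak2. GAS elements (gamma-activated sites) lie in promoters that answer to it, such as that of Irf1, and the protein of Irf1 in turn binds interferon-regulated promoters. Cxcl9 and Cxcl10 are secreted by macrophages, dendritic cells and stromal cells after interferon exposure, and both attract cells that carry Cxcr3. Tbx21 encodes T-bet, which drives Ifng and Cxcr3 in type 1 T cells and NK cells. In the aneurysmal aorta, T cells and macrophages are known to gather in the wall.

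All libraries came from wild-type mice. Each was 1 library of cells from aortas digested with enzymes, enriched for CD45, the pan-leukocyte surface marker. AAA_14 aortas received elastase, an enzyme that degrades elastic fibres. The library titled AAA_7 carries a treatment label of PBS (phosphate-buffered saline), which goes against its title, so its treatment is in doubt. Sham aortas received PBS. The labels give 20 pooled aneurysm aortas and 50 pooled control aortas, with no number for AAA_7 by itself, no age, and no unit for 14 and 7. With 1 library per group there was no test, and every difference is one between libraries.

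The promoters of Irf1, Cxcl9 and Cxcl10 are shown because these are the target genes whose levels set the libraries apart, and because each holds 1 of the 2 motifs searched. The windows run from 250 bases before to 50 bases after the start of the gene, in the direction of transcription (RefSeq, GRCm38.p6). They lie at chr11:53769764-53770063 on the plus strand for Irf1, chr5:92328030-92328329 on the minus strand for Cxcl9 and chr5:92348840-92349139 on the minus strand for Cxcl10. Capitals mark the match, which is the GAS motif TTCNNNGAA in Irf1 and the interferon regulatory factor motif GAAANNGAA in the other two.
Irf1: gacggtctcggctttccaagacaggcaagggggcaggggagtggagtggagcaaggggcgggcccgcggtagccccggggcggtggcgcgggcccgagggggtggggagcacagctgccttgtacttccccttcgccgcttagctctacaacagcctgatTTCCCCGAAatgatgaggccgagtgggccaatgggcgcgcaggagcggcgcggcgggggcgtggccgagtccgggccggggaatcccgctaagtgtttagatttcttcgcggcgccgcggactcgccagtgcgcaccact
Cxcl9: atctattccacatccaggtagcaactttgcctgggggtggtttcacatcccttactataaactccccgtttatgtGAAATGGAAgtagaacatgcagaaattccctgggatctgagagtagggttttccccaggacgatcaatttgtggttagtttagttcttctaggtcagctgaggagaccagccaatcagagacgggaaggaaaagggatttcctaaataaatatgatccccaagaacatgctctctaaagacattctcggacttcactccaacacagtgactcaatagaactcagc
Cxcl10: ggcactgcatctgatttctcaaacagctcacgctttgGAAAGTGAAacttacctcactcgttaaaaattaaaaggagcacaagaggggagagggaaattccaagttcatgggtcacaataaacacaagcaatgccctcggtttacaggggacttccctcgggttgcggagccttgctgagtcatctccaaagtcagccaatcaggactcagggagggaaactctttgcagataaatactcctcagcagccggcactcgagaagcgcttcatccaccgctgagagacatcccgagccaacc
Both strands were searched, and the GAS motif reads the same on both. The match began 90 bases before the start in Irf1, 175 in Cxcl9 and 213 in Cxcl10. The window of Ifng held a GAS match at 249 bases before its start, and those of Ifngr1, Ifngr2, Tbx21 and Cxcr3 held neither motif, nor did the window of a second start of Irf1. Among all 32851 promoter windows of the same length, 8.30% held the GAS motif and 8.56% the interferon regulatory factor motif. A match is a match of letters and no evidence of binding.

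On GRCm38, Ifng lies on chromosome 10 at 118441046 to 118445892 and Ifngr1 on the same chromosome at 19591949 to 19610229. Ifngr2 lies on chromosome 16 at 91547072 to 91565623, and Cxcr3 on chromosome X at 101731535 to 101734269. Irf1 and Tbx21 lie on chromosome 11, at 53770014 to 53778374 and at 97098071 to 97115331. Cxcl9 (chromosome 5, 92321347 to 92328079) and Cxcl10 (chromosome 5, 92346638 to 92348889) are neighbours, with 18558 bases between them.

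The files held 67243700 UMIs in 10108 barcodes for AAA_14, 13341534 in 3496 for AAA_7 and 13677839 in 3785 for Sham. Of the barcodes, 52.3% of AAA_14, 92.4% of AAA_7 and 32.6% of Sham had at least 200 genes and at most 10% mitochondrial UMIs. The kept cells had a median of 6967.5, 2581 and 3659 UMIs in AAA_14, AAA_7 and Sham, and a median mitochondrial share of 6.51%, 0.989% and 8.39%. Depth and mitochondrial share thus differed between the libraries. Values thinned to 1000 UMIs per cell stand beside many, but not all, of the results that they move. Pairs of libraries shared between 5 and 12 barcodes, of which between 1 and 8 were kept. Cells were grouped into 31 clusters without the 8 genes or the wider gene lists below, and clusters were named from marker genes, so that "T cells" stands for cells of T-cell-like clusters. The 6 classes described held 924, 562 and 440 T cells, 105, 170 and 86 NK cells, and 1256, 457 and 421 B cells of AAA_14, AAA_7 and Sham. They further held 741, 686 and 100 neutrophils, 1127, 987 and 11 phagocytes (macrophages and monocytes) and 433, 216 and 41 dendritic cells. Phagocytes and dendritic cells of Sham were too few for a ratio. In each class and library, all markers fixed for the class had a UMI, but the clusters were named from these markers, so this is no check of the names. Markers of other classes were found too, such as all 12 T cell markers in AAA_14 B cells, at 23.9 CPM. The 14 phagocyte markers summed to 2572 CPM in dendritic cells of AAA_7, above their own 16 markers at 2351 CPM. In those of AAA_14 the sums were 2449 and 2800 CPM, and in those of Sham 3809 and 5038 CPM.

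Over whole libraries, the chemokines and Irf1 were higher in AAA_14 and AAA_7 than in Sham, while Ifng was lower. Levels are CPM, the UMIs of a gene scaled to the total UMIs of the same cells. Ifng was at 13.8 CPM (703 UMIs) in AAA_14, 28.2 CPM (367 UMIs) in AAA_7 and 41.1 CPM (246 UMIs) in Sham. Ratios below are given on the log2 scale, with 0.5 counts put on each sum, followed by the 95% interval for counting error only, which holds no variation between mice or cells. For Ifng the log2 ratio was -1.58 (-1.79 to -1.36) for AAA_14 over Sham and -0.55 (-0.78 to -0.31) for AAA_7 over Sham. NK cells, where Ifng was most abundant, were 1.99% of kept cells in AAA_14, 5.26% in AAA_7 and 6.96% in Sham.

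Cxcl10 was at 246 CPM in AAA_14, 350 CPM in AAA_7 and 26.2 CPM in Sham, with log2 ratios over Sham of 3.23 (3.0 to 3.47) and 3.73 (3.51 to 3.98). The Cxcl9 sums were 2085 UMIs for AAA_14 (40.9 CPM), 308 for AAA_7 (23.6 CPM) and 3 for Sham (0.501 CPM). Irf1 was at 120 CPM in AAA_14, 138 CPM in AAA_7 and 51.3 CPM in Sham. For these target genes both AAA libraries thus lay above Sham. Cxcr3 was at 18.9, 16.0 and 8.35 CPM in AAA_14, AAA_7 and Sham, and Tbx21 at 7.06, 20.2 and 9.52 CPM. The receptor gene Ifngr1 was at 171, 263 and 143 CPM, and Ifngr2 at 63.0, 93.4 and 46.3 CPM, in the same order of libraries. Phagocytes, which carried most Cxcl10, were 21.3% of kept cells in AAA_14, 30.6% in AAA_7 and 0.891% in Sham.

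**Figure D1:**
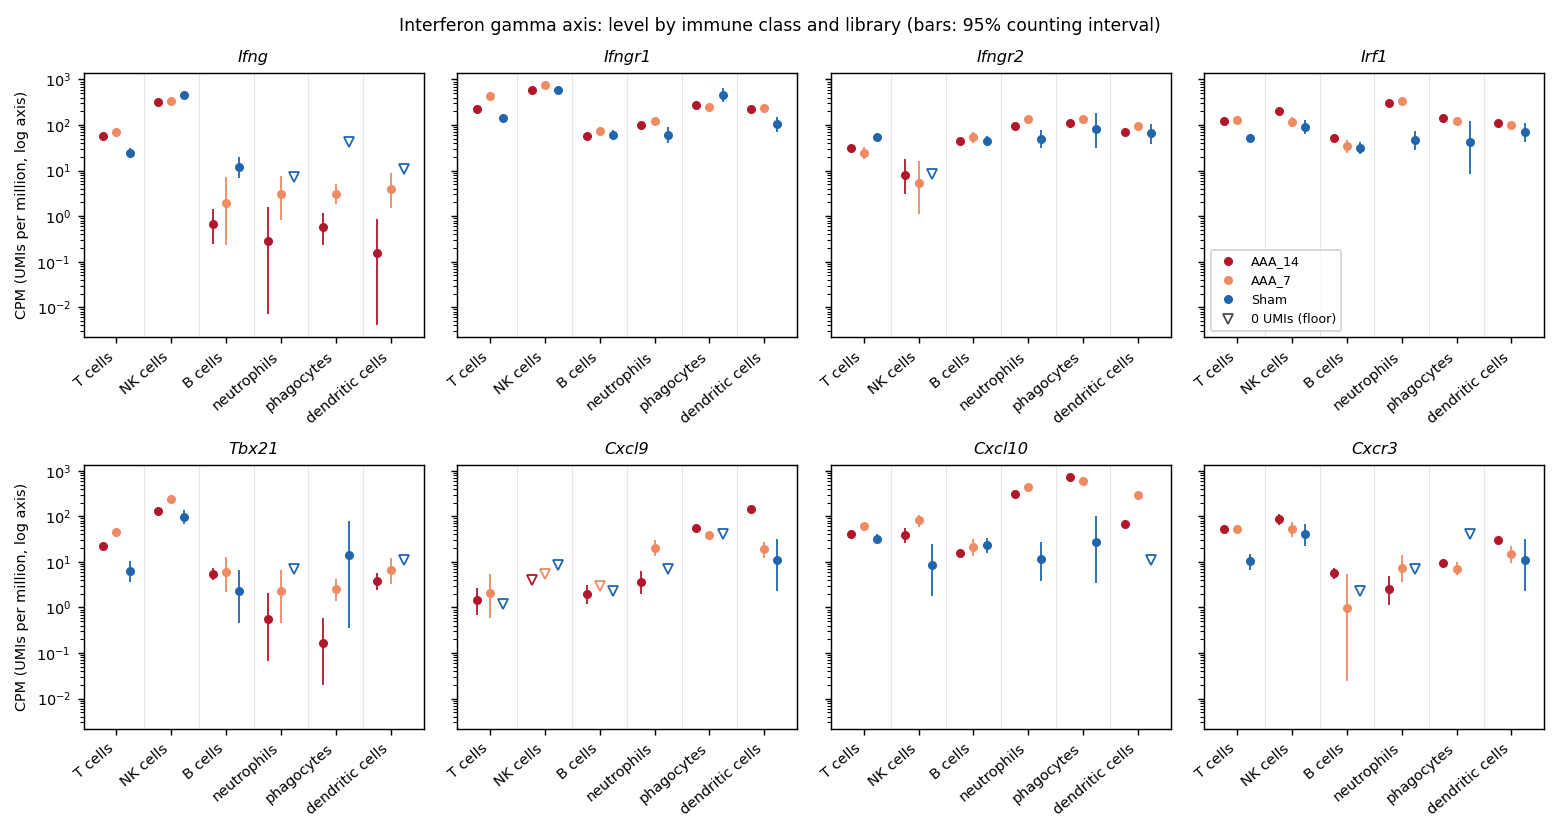
Level of each of the 8 genes in CPM (log axis) in 6 immune classes, with points for AAA_14, AAA_7 and Sham, bars for the 95% counting interval and open triangles for the level that 3 counts would give where a library had 0 UMIs. Ifng and Tbx21 were highest in NK cells, then T cells, and Cxcl10 in phagocytes of AAA_14 and AAA_7.

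**Figure D2:**
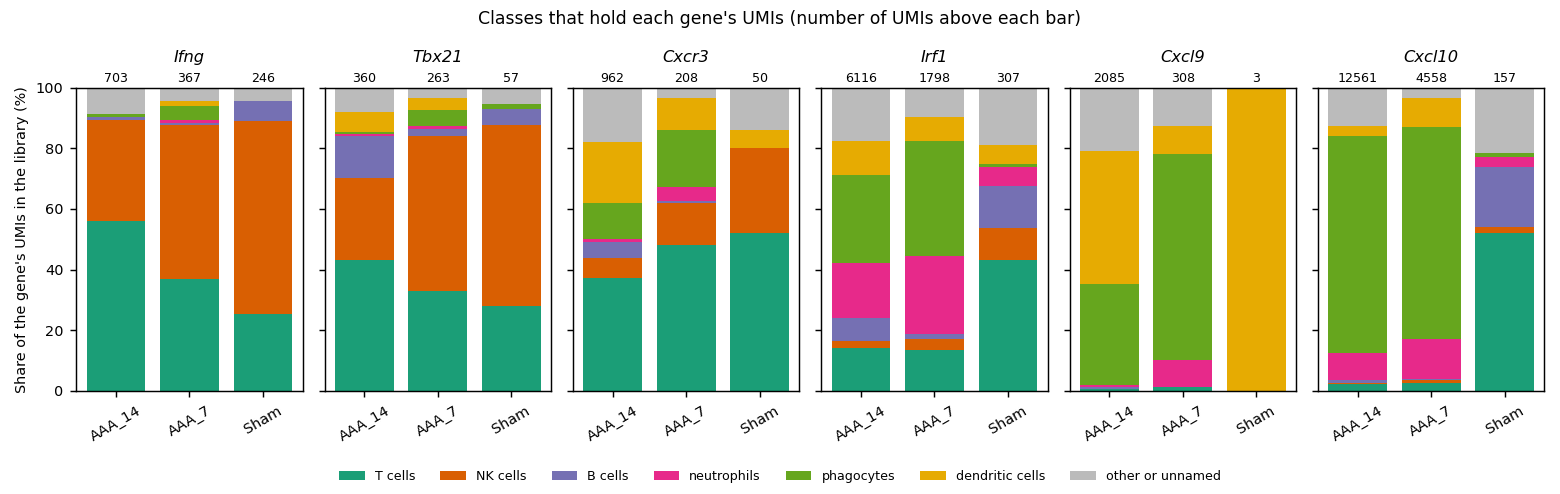
Share of each gene's UMIs, in percent, that came from each class, for 6 of the genes and the 3 libraries, with the number of UMIs above each bar. T cells held 56.0% of the Ifng UMIs of AAA_14, 37.1% of those of AAA_7 and 25.2% of those of Sham.

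Within classes, counts of the 8 genes past a 2-fold difference were read against the same count over all genes whose UMIs in the pair of libraries summed to at least 10. In T cells, 5 of 8 measured genes stood 2-fold or more higher in AAA_14 than in Sham (Ifng, Irf1, Tbx21, Cxcr3 and Cxcl9) and 0 lower, where 24.8% of all genes were higher and 3.17% lower. The call of Cxcl9 rested on 10 UMIs in AAA_14 and 0 in Sham, which gives at least 1.23-fold against a floor of 3 counts, so that 4 of 8 passed at the floor. In T cells of AAA_7 over Sham, 5 of 7 were higher (Ifng, Ifngr1, Irf1, Tbx21 and Cxcr3) and 1 lower (Ifngr2), against 25.9% and 3.88% of all genes. In NK cells of AAA_14 over Sham, 3 of 6 were higher (Irf1, Cxcl10 and Cxcr3) and 0 lower, against 20.3% and 3.67%. In B cells of AAA_14 over Sham, 3 of 8 were higher (Tbx21, Cxcl9 and Cxcr3, each on 3 UMIs or fewer in Sham) and 1 lower (Ifng), against 21% and 6.53%, and 2 of 8 were higher with the 2 genes at 0 in Sham set to the floor. All 16 Ifng UMIs of Sham B cells lay in 1 cell, without which the ratio was 0.67.

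In neutrophils of AAA_14 over Sham, 3 of 5 measured genes were higher (Irf1, Cxcl10 and Cxcl9, the last on 13 UMIs in AAA_14 and 0 in Sham) and 0 lower, against 19.1% and 8.35% of all genes. For Cxcl9 the floor of 3 counts gives no difference past 2-fold, which leaves 2 of 5, and 1 cell held 7 of its 13 UMIs. In neutrophils of AAA_7 over Sham, 5 of 6 were higher (all but Ifngr1) and 0 lower, against 26.8% and 13.8%, with Cxcl9 and Cxcr3 at 0 UMIs in Sham and 4 of 6 higher at the floor. Of the 27 Cxcl9 UMIs of AAA_7 neutrophils, 23 lay in 1 cell. In phagocytes of AAA_14 over AAA_7, 0 of 8 were higher and 2 lower (Ifng and Tbx21, with 7 against 17 and 2 against 14 UMIs), against 7.64% and 3.83%. The richest AAA_7 cell held 76.5% of its Ifng UMIs, and without the richest cells the ratio of Ifng was -0.87, under 2-fold. In dendritic cells of AAA_14 over AAA_7, 2 of 7 were higher (Cxcl9 and Cxcr3) and 1 lower (Cxcl10), against 9.14% and 6.83%. AAA_14 over Sham and AAA_7 over Sham share the Sham cells. The median gene was itself shifted, by 0.47 in T cells in both comparisons with Sham, by 0.30 and 0.27 in NK cells for AAA_14 and AAA_7 over Sham, by 0.29 in B cells of AAA_14 over Sham, and by 0.14 and 0.22 in neutrophils. Between AAA_14 and AAA_7 it was 0.10 in phagocytes and 0.14 in dendritic cells.

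**Figure D3:**
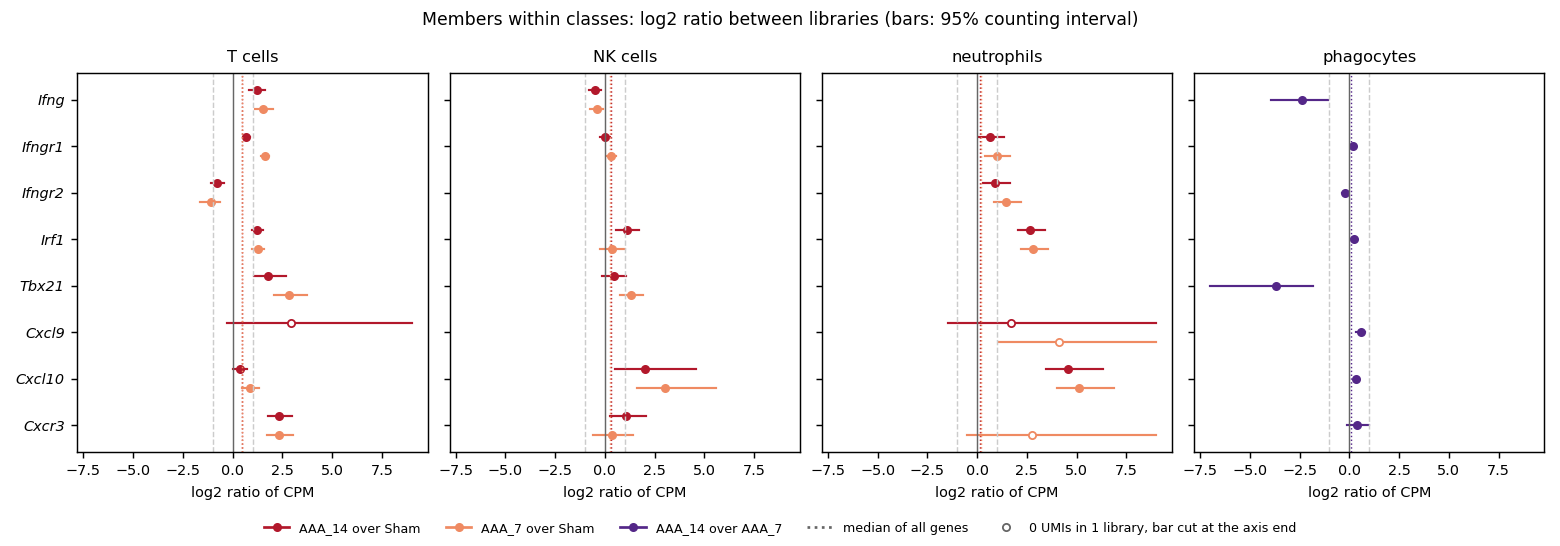
Log2 ratio of CPM between libraries for each gene in T cells, NK cells, neutrophils and phagocytes, with bars for the 95% counting interval, dashed lines at a 2-fold difference, dotted lines at the median of all genes and open points where 1 library had 0 UMIs, so that the point depends on the 0.5 counts added. Cxcr3 in T cells lay at 2.31 for AAA_14 over Sham and 2.34 for AAA_7 over Sham, while Ifng in NK cells lay below 0.

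T cells carried a larger share of Ifng in AAA_14 and AAA_7 than in Sham, but not in every T cell cluster. Ifng was at 57.3 CPM in AAA_14 T cells (394 UMIs in 86 of 924 cells), 71.6 CPM in AAA_7 T cells (136 UMIs in 48 of 562) and 24.5 CPM in Sham T cells (62 UMIs in 18 of 440). The log2 ratio was 1.22 (0.84 to 1.64) for AAA_14 over Sham, which is 0.74 above the median gene, and 1.54 (1.10 to 2.0) for AAA_7 over Sham, 1.07 above it. The counting interval of AAA_14 over AAA_7 lay just below 0, at -0.33 (-0.61 to -0.03). The single richest cell held 9.90%, 19.9% and 21.0% of these UMIs in AAA_14, AAA_7 and Sham. Thinned to 1000 UMIs per cell, 3.92%, 4.10% and 1.82% of T cells had an Ifng UMI, against 9.31%, 8.54% and 4.09% before thinning. B cells, which should lack the gene, had it in 0.478%, 0.438% and 0.238% of cells at median depths of 4401.5, 1813 and 2368 UMIs, where T cells had 6227.5, 2716.5 and 4348.5.

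The T cell cluster led by Ccl5 and Klrc1, a chemokine and a killer-lectin receptor gene of cytotoxic cells, was rich in Ifng in all libraries, and Ifng, which had no part in the clustering, was among its leading genes. It stood at 230 CPM in AAA_14, 211 CPM in AAA_7 and 233 CPM in Sham, and the log2 ratio of AAA_14 over Sham was -0.03 (-0.48 to 0.46). This cluster made up 8.87% of T cells in AAA_14, 23.1% in AAA_7 and 10.7% in Sham. Its Ifng level thus lay between 211 and 233 CPM in the 3 libraries, while its share of T cells was largest in AAA_7.

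The cluster led by Ctla4 and Izumo1r, genes of activated and regulatory T cells, differed most. Ifng was at 106 CPM in AAA_14 (182 UMIs in 38 of 256 cells), 35.3 CPM in AAA_7 (15 UMIs in 7 of 136) and 7.55 CPM in Sham (2 UMIs in 1 of 43). A single cell held 21.4% of the UMIs in AAA_14 and 60% in AAA_7. The log2 ratio of AAA_14 over Sham was 3.50 (1.94 to 6.87), and that of AAA_14 over AAA_7 was 1.55 (0.83 to 2.46). The cluster made up 27.7% of T cells in AAA_14, 24.2% in AAA_7 and 9.77% in Sham. The cluster led by Lef1 and Dapl1, genes of resting T cells, held 49.0%, 39.5% and 74.3% of T cells of AAA_14, AAA_7 and Sham and was low in Ifng throughout, at 2.19, 4.91 and 3.21 CPM. In the dividing T cells led by Hist1h2ap and Pclaf, Ifng was at 41.1 CPM in AAA_14 and 114 CPM in AAA_7, where 1 cell held 67.5% of it, and at 0 of 20 cells in Sham.

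Split by UMIs in the single cell, T cells with Cd4 and without Cd8a or Cd8b1 had Ifng in 39 of 396 cells in AAA_14 (58.4 CPM), in 8 of 112 in AAA_7 (34.0 CPM) and in 0 of 94 in Sham. T cells with Cd8a or Cd8b1 and without Cd4 had it in 20 of 256 cells in AAA_14 (40.7 CPM), 14 of 172 in AAA_7 (54.1 CPM) and 8 of 164 in Sham (22.3 CPM). The Sham library thus held no Ifng UMI in the 94 T cells with a Cd4 UMI alone, and did hold it in those with a Cd8a or Cd8b1 UMI alone. By the floor of 3 counts, 0 allows a share of cells with a UMI of up to 3.19% (3 of 94). T cells with UMIs of neither kind, or of both, are in neither group. Over all Sham T cells, 18 of 440 had an Ifng UMI, so others with Ifng lay outside both groups. Absence of Ifng from Cd4 T cells cannot be read from this split. Cells with Foxp3, the regulatory T cell factor, had it in 4 of 81, 2 of 39 and 0 of 22 cells of AAA_14, AAA_7 and Sham.

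The 7 NK cell markers summed to 142 CPM in T cells of AAA_14, 300 CPM in AAA_7 and 49.8 CPM in Sham, which runs with the level of Ifng, and their part in it was not tested. Scaled by TMM factors (trimmed mean of M-values, which correct for composition), the ratio of Ifng in T cells of AAA_14 over Sham was 0.76, and after thinning 0.77, both under 2-fold.

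NK cells, cytotoxic lymphocytes that release interferon gamma without prior priming, had the highest Ifng level of the 6 classes in all libraries and carried slightly less of it in AAA_14 and AAA_7 than in Sham. Ifng was at 319 CPM in AAA_14 (234 UMIs in 45 of 105 cells), 338 CPM in AAA_7 (186 UMIs in 57 of 170) and 451 CPM in Sham (157 UMIs in 41 of 86). The log2 ratio was -0.50 (-0.80 to -0.20) for AAA_14 over Sham and -0.42 (-0.73 to -0.10) for AAA_7 over Sham. The 7 NK cell markers in these cells summed to 6537 CPM in AAA_14, 7035 CPM in AAA_7 and 10447 CPM in Sham, lower in the same libraries as Ifng, and the 14 phagocyte markers to 1070, 1073 and 729 CPM. Their part in the result was not tested. Thinned to 1000 UMIs, 22.9%, 23.8% and 21.2% of NK cells of AAA_14, AAA_7 and Sham had a UMI, with intervals that overlap, and the ratio of AAA_14 over Sham was 0.03. NK cells supplied 33.3% of the Ifng UMIs of AAA_14, 50.7% of those of AAA_7 and 63.8% of those of Sham.

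Tbx21, the T-bet gene, was higher over all T cells of AAA_14 and AAA_7 than over those of Sham, with too few counts to tell in some clusters. It was also higher in NK cells of AAA_7. In T cells it was at 22.5 CPM in AAA_14 (155 UMIs), 45.8 CPM in AAA_7 (87 UMIs) and 6.32 CPM in Sham (16 UMIs). The log2 ratio was 1.79 (1.09 to 2.68) for AAA_14 over Sham and 2.82 (2.08 to 3.73) for AAA_7 over Sham, 1.32 and 2.35 above the median gene. That of AAA_14 over AAA_7 was -1.03 (-1.41 to -0.63), so Tbx21 was highest in the T cells of AAA_7. The NK cell markers in T cells, given above for Ifng, lay in the same order of libraries, and their part in the level of Tbx21 was not tested. Thinned to 1000 UMIs, 2.07%, 4.28% and 0.228% of T cells of AAA_14, AAA_7 and Sham had a Tbx21 UMI, against 10.4%, 12.3% and 3.41% before, and B cells had one in 2.71%, 0.875% and 0.713%. Within the cluster led by Ccl5 and Klrc1, where Ifng lay between 211 and 233 CPM, Tbx21 was at 84.5 CPM in AAA_14, 122 CPM in AAA_7 and 12.7 CPM in Sham (54, 45 and 3 UMIs). The log2 ratio there was 2.52 (1.11 to 5.05) for AAA_14 over Sham and 3.05 (1.62 to 5.59) for AAA_7 over Sham. In the cluster led by Lef1 and Dapl1 these ratios were 0.03 (-1.36 to 1.64) and 1.53 (-0.12 to 3.24). In that led by Ctla4 and Izumo1r they were 0.07 (-1.29 to 2.18) and 1.19 (-0.31 to 3.36). Sham held 7 and 4 Tbx21 UMIs in these last clusters, and the intervals reach past 2-fold in both directions. A difference between AAA_14 and Sham can thus be neither read nor excluded there. In NK cells Tbx21 was at 134 CPM in AAA_14, 243 CPM in AAA_7 and 97.6 CPM in Sham. The ratios over Sham were 0.44 (-0.12 to 1.06) for AAA_14 and 1.30 (0.76 to 1.91) for AAA_7. T cells with Cd4 and without Cd8a or Cd8b1 had a Tbx21 UMI in 30 of 396 cells in AAA_14, 9 of 112 in AAA_7 and 0 of 94 in Sham.

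Within a library, the same T cells tended to carry Ifng, Tbx21 and Cxcr3. In AAA_14, 40.7% of T cells with an Ifng UMI also had one of Tbx21, against 7.28% of the rest, and 47.7% had one of Cxcr3, against 16.5% of the rest. Both sets of cells had nearly the same median depth, 6219.5 and 6227.5 UMIs. In AAA_7 the shares were 31.3% against 10.5% for Tbx21 and 25% against 11.9% for Cxcr3, with the Ifng cells deeper (3123.5 against 2699.5 median UMIs). In Sham they were 11.1% against 3.08% and 22.2% against 4.03%, on 2 and 4 of 18 cells with Ifng. The shares pool T cell clusters that differ in these genes, and what this adds to them was not tested.

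Of the 11 genes that induce or support Ifng production, 8 were measured in T cells of AAA_14 and Sham. Of these, 4 stood 2-fold or more higher in AAA_14 and 0 lower, where 24.8% and 3.17% of all genes did so, and their median log2 ratio was 1.05, against 0.47 over all genes. Il12rb1, a chain of the interleukin 12 receptor, had 149 UMIs in AAA_14 and 1 in Sham (21.7 and 0.395 CPM), a log2 ratio of 5.20 (3.28 to 11.09). The interleukin 18 receptor genes Il18rap and Il18r1 were at 43.8 and 148 CPM in AAA_14, against 9.49 and 39.5 CPM in Sham, ratios of 2.18 (1.61 to 2.87) and 1.90 (1.61 to 2.22). Il12a, which encodes a subunit of interleukin 12, rested on 9 and 1 UMIs. In T cells of AAA_7 over Sham, 5 of 6 were higher, where 25.9% of all genes were, led by Il12rb1 (36 and 1 UMIs) and Il18rap (73.7 and 9.49 CPM).

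In dendritic cells, 2 of 10 of these genes stood 2-fold or more higher in AAA_14 than in AAA_7 and 1 lower, against 9.14% and 6.83% of all genes. Il12b, the shared subunit of interleukins 12 and 23, was at 38.6 CPM in AAA_14 and 17.4 CPM in AAA_7, a ratio of 1.12 (0.56 to 1.79). Il12a had 26 and 2 UMIs, and Eomes, a relative of Tbx21, 7 and 4. In phagocytes 0 of 10 were higher and 1 lower, against 7.64% and 3.83%, and the lower one was Il12b at 9 UMIs in AAA_14 and 16 in AAA_7. In NK cells of AAA_14 over Sham 1 of 6 was higher (Il12rb1, 13 and 1 UMIs), close to the 20.3% of all genes, and the median was 0.06, against 0.30.

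The receptor chain gene Ifngr1 was found in every class, most in NK cells. NK cells had 589 CPM in AAA_14, 748 CPM in AAA_7 and 594 CPM in Sham, and the ratio over Sham was -0.02 (-0.26 to 0.23) for AAA_14 and 0.33 (0.09 to 0.58) for AAA_7. In T cells it was at 230 CPM in AAA_14, 439 CPM in AAA_7 and 143 CPM in Sham. The ratio over Sham was 0.69 (0.52 to 0.86) for AAA_14 and 1.62 (1.44 to 1.80) for AAA_7, so that the T cells of AAA_7 stood apart from both other libraries. The gamma-delta T cells led by Cd163l1 and Tcrg-C1 were the T cells with the most, at 537 CPM in AAA_14 and 882 CPM in AAA_7. Sham held only 3 cells of that cluster.

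Phagocytes had 280 CPM of Ifngr1 in AAA_14 and 246 CPM in AAA_7, and dendritic cells 223 and 239 CPM. After thinning, the ratio of AAA_14 over AAA_7 was -0.03 in phagocytes and -0.31 in dendritic cells. Neutrophils had 99.4 CPM in AAA_14, 123 CPM in AAA_7 and 61.6 CPM in Sham, where the gene rested on 26 UMIs. The ratio of AAA_14 over Sham was 0.67 (0.12 to 1.33), and that of AAA_7 over Sham was 0.37 after thinning. B cells were lowest of the 6 classes in AAA_14 and AAA_7, at 56.9 and 73.2 CPM, and stood at 62.0 CPM in Sham.

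Ifngr2 had another order of classes, with phagocytes and neutrophils high in AAA_14 and AAA_7 and NK cells close to none in all libraries. In Sham, neutrophils lay below T cells. Phagocytes had 113 CPM in AAA_14 and 133 CPM in AAA_7, a ratio of -0.23 (-0.36 to -0.10), and -0.37 after thinning. The NK cells of AAA_14 held 6 UMIs, those of AAA_7 held 3 and those of Sham 0. For the 0 of 86 Sham NK cells, the floor of 3 counts allows a share with a UMI of up to 3.49% (3 of 86). In T cells, Ifngr2 was the member that was lower in the AAA libraries: it was at 31.0 CPM in AAA_14, 24.7 CPM in AAA_7 and 53.4 CPM in Sham, with ratios over Sham of -0.79 (-1.10 to -0.46) and -1.10 (-1.62 to -0.62), and of -1.26 and -1.57 relative to the median gene. In the T cells led by Lef1 and Dapl1 it was at 61.2 CPM in AAA_14, 31.1 CPM in AAA_7 and 77.7 CPM in Sham. The ratio over Sham within this cluster was -0.35 (-0.69 to 0.01) for AAA_14 and -1.29 (-2.10 to -0.62) for AAA_7. The gamma-delta T cells led by Cd163l1 had 23.2 CPM in AAA_14 and 90.3 CPM in AAA_7, on 16 and 13 UMIs.

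Neutrophils ran the other way for Ifngr2, with 94.6 CPM in AAA_14, 139 CPM in AAA_7 and 49.7 CPM in Sham (337, 185 and 21 UMIs). The ratios over Sham were 0.90 (0.29 to 1.64) and 1.45 (0.83 to 2.21). B cells had 45.7 CPM in AAA_14, 54.7 CPM in AAA_7 and 44.8 CPM in Sham, a ratio of 0.02 (-0.37 to 0.44) for AAA_14 over Sham. Dendritic cells had 68.9 CPM in AAA_14 and 96.5 CPM in AAA_7, a ratio of -0.49 (-0.76 to -0.20).

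Irf1, the interferon-induced transcription factor whose promoter with its GAS match is printed above, was higher in AAA_14 than in Sham in neutrophils, T cells and NK cells. The 9 neutrophil markers summed to 246375 CPM in the neutrophils of AAA_14, 105280 CPM in AAA_7 and 360770 CPM in Sham, and what this large share does to the CPM of other genes was not tested. In neutrophils Irf1 was at 310 CPM in AAA_14 (1103 UMIs in 341 of 741 cells), 343 CPM in AAA_7 (457 UMIs in 216 of 686) and 47.4 CPM in Sham (20 UMIs in 15 of 100). The ratios over Sham were 2.67 (2.07 to 3.43) for AAA_14 and 2.82 (2.21 to 3.58) for AAA_7. Thinned to 1000 UMIs, 22.9% of AAA_14 neutrophils, 22.4% of AAA_7 neutrophils and 8.08% of Sham neutrophils had an Irf1 UMI.

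Different clusters made up the neutrophils of the libraries. The cluster led by Csf1 and Acod1, genes of activated neutrophils, held 22.4% of neutrophils in AAA_14, 94.6% in AAA_7 and 1 of 100 in Sham, and Irf1 was at 844 CPM there in AAA_14 and 375 CPM in AAA_7. Within the cluster led by Retnlg and Csf3r, Irf1 was at 294 CPM in AAA_14 and 92.3 CPM in Sham, a ratio of 1.62 (0.91 to 2.55). Within that led by the granule genes Ltf and Ngp it was at 70.8 CPM in AAA_14 and 22.3 CPM in Sham, 1.56 (0.49 to 3.15). Irf1 was thus higher in AAA_14 in both clusters that could be compared, by less than over the whole class. When AAA_14 and Sham were clustered without AAA_7, 240 AAA_14 cells and 56 Sham cells were named neutrophils, in place of 741 and 100, and the ratio was 1.03.

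In T cells, Irf1 was at 125 CPM in AAA_14, 126 CPM in AAA_7 and 52.6 CPM in Sham (859, 240 and 133 UMIs). The ratios over Sham were 1.24 (0.98 to 1.52) and 1.26 (0.95 to 1.58), or 0.77 and 0.79 above the median gene. The difference was present in the resting cluster led by Lef1 and Dapl1, at 131 CPM in AAA_14, 142 CPM in AAA_7 and 49.4 CPM in Sham, a ratio of 1.40 (1.05 to 1.78) for AAA_14 over Sham. It was 0.72 (0.10 to 1.47) in the cluster led by Ctla4 and Izumo1r and 1.02 (0.32 to 1.86) in that led by Ccl5 and Klrc1, again for AAA_14 over Sham. All 3 clusters thus had higher Irf1 in AAA_14, unlike Ifng.

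NK cells had 199 CPM of Irf1 in AAA_14, 118 CPM in AAA_7 and 91.9 CPM in Sham, with ratios over Sham of 1.10 (0.55 to 1.71) and 0.35 (-0.27 to 1.02). B cells had 51.0 CPM in AAA_14, 34.2 CPM in AAA_7 and 31.4 CPM in Sham, and the ratio of AAA_14 over Sham was 0.68 (0.24 to 1.19). Phagocytes had 146 CPM in AAA_14 and 125 CPM in AAA_7, and dendritic cells 110 and 97.9 CPM. The counting intervals of the last pair overlap, and the phagocyte ratio of AAA_14 over AAA_7 was 0.05 after thinning.

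Downstream of the receptor, the kinase genes Jak1 and Jak2, the feedback genes Socs1 and Ptpn2, and Irf8, another interferon regulatory factor, were compared. In T cells 0 of these 5 passed 2-fold for AAA_14 over Sham, where 24.8% of all genes were higher and 3.17% lower. For AAA_7 over Sham 1 of 5 was higher, where 25.9% of all genes were. It was Irf8, at 64.2 CPM in AAA_7 and 22.1 CPM in Sham. In neutrophils of AAA_14 over Sham 1 of 5 was higher, a share close to the 19.1% of all genes. It was Irf8, at 35.7 CPM in AAA_14 and 9.47 CPM in Sham (127 and 4 UMIs), a ratio of 1.75 (0.52 to 3.81). In neutrophils of AAA_7 over Sham 4 of 5 were higher, where 26.8% of all genes were, led by Socs1 at 34.6 CPM in AAA_7 and 4.74 CPM in Sham (46 and 2 UMIs) and Jak2 at 157 and 35.5 CPM. Jak1 was within 2-fold in both, with ratios of -0.08 for AAA_14 and 0.62 for AAA_7 over Sham. In phagocytes of AAA_14 over AAA_7 0 of 5 passed 2-fold in either direction, where 7.64% of all genes were higher and 3.83% lower. The farthest was Socs1, at 11.1 CPM in AAA_14 and 19.7 CPM in AAA_7, a ratio of -0.83 (-1.20 to -0.45).

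Cxcl10, a Cxcr3 ligand, came mainly from phagocytes in AAA_14 and AAA_7, and neutrophils of both carried it where those of Sham had almost none. Phagocytes had 738 CPM in AAA_14 (9011 UMIs in 508 of 1127 cells) and 584 CPM in AAA_7 (3197 UMIs in 392 of 987), a ratio of 0.34 (0.28 to 0.40). The 11 Sham phagocytes held 2 UMIs. Phagocytes supplied 71.7% of the Cxcl10 UMIs of AAA_14, 70.1% of those of AAA_7 and 1.27% of those of Sham. Thinned to 1000 UMIs, 25.0% of AAA_14 and 21.7% of AAA_7 phagocytes had a Cxcl10 UMI, against 45.1% and 39.7% before thinning.

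The phagocyte clusters differed in direction. The macrophages led by Ccl8 and Ccl7 had 1042 CPM in AAA_14 and 570 CPM in AAA_7, a ratio of 0.87 (0.77 to 0.97), and those led by Thbs1 and Flrt3 had 686 and 535 CPM. Macrophages led by Slamf9 and Ms4a7 had 664 CPM in AAA_14 and 1143 CPM in AAA_7, a ratio of -0.78 (-0.91 to -0.65). The ratio over all phagocytes thus joins clusters that went opposite ways, and those clusters made up 44.2%, 5.59% and 17.3% of phagocytes in AAA_14 and 27.96%, 47.3% and 10.4% in AAA_7. Monocytes led by Ear2 and Ace made up a further 21.4% in AAA_14 and 2.13% in AAA_7, whose 21 cells were too few for a ratio within that cluster.

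In neutrophils Cxcl10 was at 309 CPM in AAA_14 (1100 UMIs in 112 of 741 cells), 446 CPM in AAA_7 (594 UMIs in 108 of 686) and 11.8 CPM in Sham (5 UMIs in 3 of 100). The ratios over Sham were 4.57 (3.48 to 6.33) and 5.10 (4.01 to 6.86). Most of it lay in the cluster led by Csf1 and Acod1, at 1529 CPM in AAA_14 and 488 CPM in AAA_7, a ratio of 1.65 (1.5 to 1.80). In the cluster led by Retnlg and Csf3r it was at 46.4 CPM in AAA_14 and 13.2 CPM in Sham, on 2 Sham UMIs. When AAA_14 and Sham were clustered without AAA_7, the ratio over all cells named neutrophils was 1.40. In AAA_14, 63.4% of neutrophils with Cxcl10 had an Irf1 UMI, against 42.9% of the rest, at median depths of 3723 and 3734 UMIs.

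Dendritic cells had 67.5 CPM of Cxcl10 in AAA_14 and 294 CPM in AAA_7, a ratio of -2.12 (-2.32 to -1.93), with 30.1% and 30.4% of the UMIs in a single cell. Where each cell was classed alone by its marker UMIs, the ratio was -0.44. Neutrophil markers summed to 212 CPM in dendritic cells of AAA_14 and 1915 CPM in those of AAA_7, and their part in the result was not tested. T cells had 41.3 CPM in AAA_14, 60.0 CPM in AAA_7 and 32.4 CPM in Sham, where 14 cells held 82 UMIs. The ratio of AAA_14 over Sham was 0.34 (-0.01 to 0.72), but -0.13 relative to the median gene and 2.28 after thinning, so that its direction depends on the scaling. The 14 Sham cells had a median of 14910.5 UMIs, against 4319.5 in the other Sham T cells. The T cell clusters went opposite ways. Within the cluster led by Ctla4 and Izumo1r the ratio of AAA_14 over Sham was -1.83 (-2.37 to -1.27), with 45 UMIs in 43 Sham cells. Within that led by Lef1 and Dapl1 it was 1.71 (0.55 to 3.34), on 37 UMIs in AAA_14 and 6 in Sham. The cluster led by Ccl5 and Klrc1 held 25 UMIs in AAA_14 and 0 in Sham. The 14 phagocyte markers summed to 702 CPM in T cells of AAA_14, 1119 CPM in AAA_7 and 352 CPM in Sham, in the same order as Cxcl10, and their part in it was not tested. Of B cells, 7.32% in AAA_14, 4.38% in AAA_7 and 0.475% in Sham had a Cxcl10 UMI, where their phagocyte markers summed to 573, 606 and 322 CPM. A single Sham B cell held 30 of the 31 Sham UMIs, so that the ratio of AAA_14 over Sham was -0.59 (-1.14 to 0.04) with it and 3.52 without the richest cells. In NK cells it was at 39.5 CPM in AAA_14, 81.7 CPM in AAA_7 and 8.61 CPM in Sham (29, 45 and 3 UMIs).

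Cxcl9, the neighbouring gene and the other Cxcr3 ligand measured, came from fewer cells. Dendritic cells held 43.9% of its UMIs in AAA_14 and phagocytes 33.3%, while in AAA_7 phagocytes held 68.2%. Dendritic cells had 144 CPM in AAA_14 (916 UMIs in 56 of 433 cells) and 18.8 CPM in AAA_7 (28 UMIs in 9 of 216), a ratio of 2.92 (2.40 to 3.54), with 23.5% of the AAA_14 UMIs in 1 cell. The 41 Sham dendritic cells held 3 UMIs, in 1 cell. With a mitochondrial limit of 20% the ratio was 1.43. Thinned, 4.41% of AAA_14 and 1.97% of AAA_7 dendritic cells had a UMI, against 12.9% and 4.17% before, and T cells, which should lack it, had one in 1.08% and 0.712%. The gene and Cxcl10 thus had opposite directions in dendritic cells between AAA_14 and AAA_7.

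Within dendritic cells Cxcl9 was concentrated in the conventional cells led by Xcr1 and Naaa, the cross-presenting kind, at 311 CPM in AAA_14 (764 UMIs in 34 of 116 cells) and 10.7 CPM in AAA_7 (4 UMIs in 3 of 34). The conventional cells led by Cd209a and Ffar2 had 55.0 CPM in AAA_14 and 24.9 CPM in AAA_7, a ratio of 1.11 (0.43 to 1.94), and those led by Fscn1 and Ccl22, the mature cells, 22.6 and 18.8 CPM. Plasmacytoid cells held 0 UMIs in AAA_14 and 1 in AAA_7. The cells led by Xcr1 were 26.8% of dendritic cells in AAA_14 and 15.7% in AAA_7. For Cxcl10 the cells led by Cd209a held most, at 118 CPM in AAA_14 and 544 CPM in AAA_7, and those led by Xcr1 had 46.1 and 48.1 CPM.

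Phagocytes had 56.9 CPM of Cxcl9 in AAA_14 (694 UMIs in 73 of 1127 cells) and 38.4 CPM in AAA_7 (210 UMIs in 31 of 987), a ratio of 0.56 (0.34 to 0.80). The single richest cell held 12.2% of the UMIs in AAA_14 and 25.2% in AAA_7. This ratio, too, joins clusters that went opposite ways. It was 0.54 (0.17 to 0.95) in the macrophages led by Ccl8 and Ccl7 and 1.59 (0.85 to 2.54) in those led by Slamf9 and Ms4a7. Those led by Thbs1 and Flrt3 had 24.0 CPM in AAA_14 and 62.7 CPM in AAA_7, a ratio of -1.33 (-2.38 to -0.53). They made up 5.59% of phagocytes in AAA_14 and 47.3% in AAA_7. In AAA_14, 64.4% of phagocytes with Cxcl9 also had a Cxcl10 UMI, against 43.7% of the rest, and in AAA_7 58.1% against 39.1%, with the Cxcl9 cells deeper in both (11641 against 9859.5 and 6023 against 4646.5 median UMIs). Retnla-led macrophages, which also express Lyve1 and Cd163 as resident macrophages do, held 0 Cxcl9 UMIs in 91 cells of AAA_14 and 36 of AAA_7, while their Cxcl10 was at 675 and 196 CPM. NK cells held 0 Cxcl9 UMIs in all libraries.

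Non-immune cells that passed the CD45 selection also carried the chemokines in AAA_14. Fibroblast-like cells had Cxcl9 in 11 of 41 cells (186 CPM) and Cxcl10 in 11 (346 CPM), and endothelial-like cells had Cxcl9 in 8 of 25 cells (208 CPM). All 47 Cxcl9 UMIs of smooth-muscle-like cells lay in 1 of 26 cells. AAA_7 and Sham held too few such cells to compare.

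**Figure D4:**
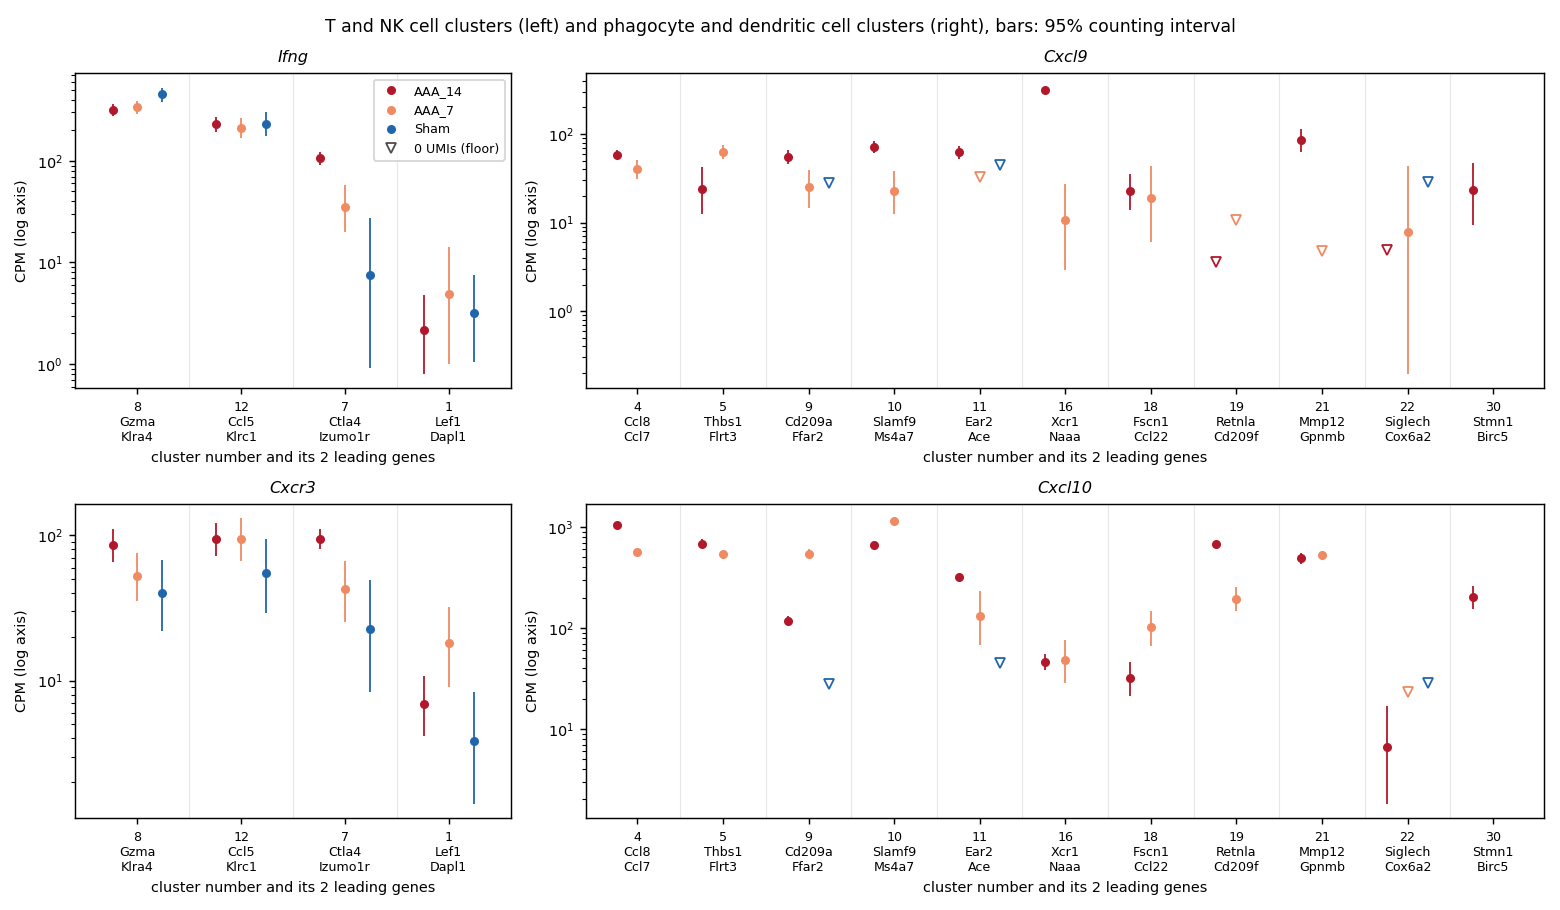
CPM (log axis) of Ifng and Cxcr3 in NK and T cell clusters and of Cxcl9 and Cxcl10 in phagocyte and dendritic cell clusters, each named by its number and 2 leading genes, with points for AAA_14, AAA_7 and Sham and bars for the 95% counting interval. Ifng in the cluster led by Ctla4 was at 106 CPM in AAA_14 and 7.55 CPM in Sham, while in that led by Ccl5 it was at 230 and 233 CPM; Cxcl9 stood highest in the AAA_14 cells led by Xcr1, at 311 CPM.

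Cxcr3, the receptor for both chemokines, was higher in T cells of AAA_14 and AAA_7 than in those of Sham. Over the whole class it hardly differed between AAA_14 and AAA_7, while single clusters did. It was at 51.9 CPM in AAA_14 (357 UMIs in 179 of 924 cells), 52.6 CPM in AAA_7 (100 UMIs in 73 of 562) and 10.3 CPM in Sham (26 UMIs in 21 of 440). The ratios over Sham were 2.31 (1.76 to 2.97) and 2.34 (1.72 to 3.04), or 1.84 and 1.87 above the median gene. That of AAA_14 over AAA_7 was -0.03 (-0.34 to 0.31), which joins clusters that went opposite ways. It was 1.12 (0.45 to 1.94) in the cluster led by Ctla4 and Izumo1r and -0.02 (-0.64 to 0.63) in that led by Ccl5 and Klrc1. In the cluster led by Lef1 and Dapl1 it was -1.41 (-2.52 to -0.16), on 19 and 11 UMIs. In the gamma-delta T cells led by Cd163l1 it was -1.57 (-2.71 to -0.32), on 18 and 11 UMIs. Thinned, 5.01%, 4.47% and 0.911% of T cells of AAA_14, AAA_7 and Sham had a UMI, against 19.4%, 13% and 4.77% before. Neutrophils, which should lack it, had a UMI in 1.21%, 1.46% and 0% of cells, at median depths of 3734, 1700 and 3520 UMIs. For the 0 of 100 Sham cells, the floor of 3 counts allows up to 3% (3 of 100).

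Within T cells, Cxcr3 was at 94.2 CPM in AAA_14, 42.4 CPM in AAA_7 and 22.6 CPM in Sham in the cluster led by Ctla4 and Izumo1r, a ratio of 1.95 (0.90 to 3.52) for AAA_14 over Sham. In the cluster led by Ccl5 and Klrc1 it was at 93.9, 94.8 and 55.1 CPM, and the ratio was 0.73 (-0.11 to 1.76). Dividing T cells had 90.4 CPM in AAA_14, 71.3 CPM in AAA_7 and 2.19 CPM in Sham, the last on 1 UMI in 20 cells. The resting cells led by Lef1 and Dapl1 were low, at 6.92, 18.0 and 3.85 CPM. The difference between libraries was thus smaller within the Ccl5 cluster than over all T cells. T cells with Foxp3 had 62.9 CPM in AAA_14, 52.8 CPM in AAA_7 and 13.6 CPM in Sham, on 42, 13 and 4 UMIs.

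NK cells had 85.8 CPM of Cxcr3 in AAA_14, 52.6 CPM in AAA_7 and 40.2 CPM in Sham, with ratios over Sham of 1.06 (0.24 to 2.04) and 0.36 (-0.58 to 1.42), the first 0.75 relative to the median gene. After thinning, the ratio of AAA_14 over Sham was 2.13, on 13 and 2 UMIs. Dendritic cells had 30.4 CPM in AAA_14 and 14.7 CPM in AAA_7, a ratio of 1.02 (0.41 to 1.75), which was 0.12 with a mitochondrial limit of 20%. Outside lymphocytes, the conventional dendritic cells led by Xcr1 had it in 68 of 116 cells in AAA_14 (63.2 CPM) and 10 of 34 in AAA_7 (34.8 CPM), and plasmacytoid dendritic cells in 21 of 57 (56.2 CPM) and 3 of 25 (31.1 CPM). Conventional dendritic cells led by Cd209a had 2 and 4 UMIs. The cells led by Xcr1 thus carried both the ligand Cxcl9 and the receptor gene in AAA_14. Among phagocytes the macrophages led by Slamf9 and Ms4a7 had the most Cxcr3, at 25.3 CPM in AAA_14 and 9.85 CPM in AAA_7. The B cells of AAA_14 held 52 UMIs, those of AAA_7 held 1 and those of Sham 0, which is at least 2.56-fold higher in AAA_14 than in Sham against a floor of 3 counts in the Sham class. With classes from single cells the log2 ratio was 0.54, and with 5 counts added 0.75, both under 2-fold. Plasma cells had 94 UMIs in 41 of 188 cells in AAA_14 and 0 in 24 cells in AAA_7.

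The wider list of 26 genes known to be induced by interferon gamma, of which 25 symbols were in the files, included guanylate-binding proteins, immunity-related GTPases, antigen-processing genes and Ciita. Many of them also answer to type I interferon, and close paralogs among the Gbp, Irgm and Tgtp genes may share reads, so that single members of these families are uncertain. In T cells 14 of 21 measured were at least 2-fold higher in AAA_14 than in Sham and 0 lower, with a median of 1.45, against 24.8% of all genes and a median of 0.47. The largest ratio was that of Iigp1, a GTPase that attacks the vacuoles of intracellular parasites, at 43.3 CPM in AAA_14 and 4.74 CPM in Sham, 3.14 (2.37 to 4.16). Serpina3g, a serine protease inhibitor, followed at 38.4 and 4.74 CPM, and then the guanylate-binding proteins Gbp6 (56.0 and 11.5 CPM) and Gbp2 (48.6 and 10.7 CPM). In T cells of AAA_7 over Sham 11 of 21 were higher, against 25.9% of all genes, with a median of 1.24.

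In neutrophils 18 of 20 measured genes of the list were higher in AAA_14 than in Sham and 0 lower, where 19.1% and 8.35% of all genes were, with a median of 2.14, against 0.14 over all genes. With the 6 genes at 0 UMIs in Sham set to a floor of 3 counts, 14 were higher and 1 lower, and the median was 1.93. Gbp5 and Gbp3 had 125 and 110 UMIs in AAA_14 and 0 in Sham. Gbp2 was at 201 CPM in AAA_14 and 9.47 CPM in Sham (4 UMIs), a ratio of 4.24 (3.04 to 6.29), and Igtp, another GTPase, had 250 UMIs in AAA_14 and 2 in Sham. In neutrophils of AAA_7 over Sham 14 of 16 were higher, against 26.8% of all genes, with a median of 2.12. The list was thus higher in the neutrophils of both libraries, whose clusters differ from those of Sham as given for Irf1.

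In NK cells 6 of 18 were higher in AAA_14 than in Sham, against 20.3% of all genes, with a median of 0.80, against 0.30 over all genes. In B cells 7 of 21 were higher, against 21% of all genes, with a median of 0.81, against 0.29. With the 2 genes at 0 in Sham B cells at the floor, 5 of 21 were higher, a share near that of all genes, and the median was 0.78. In phagocytes of AAA_14 over AAA_7, 4 of 24 were higher and 1 lower, against 7.64% and 3.83% of all genes, with a median of 0.64. The farthest were Gbp2b (22.9 CPM in AAA_14 and 2.56 CPM in AAA_7), the nitric oxide synthase gene Nos2, which was lower (1.39 and 7.13 CPM), the MHC class II regulator Ciita (112 and 29.1 CPM) and Gbp4 (29.0 and 10.4 CPM). In dendritic cells 5 of 22 were higher, against 9.14% of all genes, with a median of 0.35, against 0.14, led by Gbp9 (77 and 3 UMIs in AAA_14 and AAA_7), Serpina3g (59.1 and 16.8 CPM), Igtp (26.8 and 10.7 CPM) and Ciita (299 and 131 CPM).

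**Figure D5:**
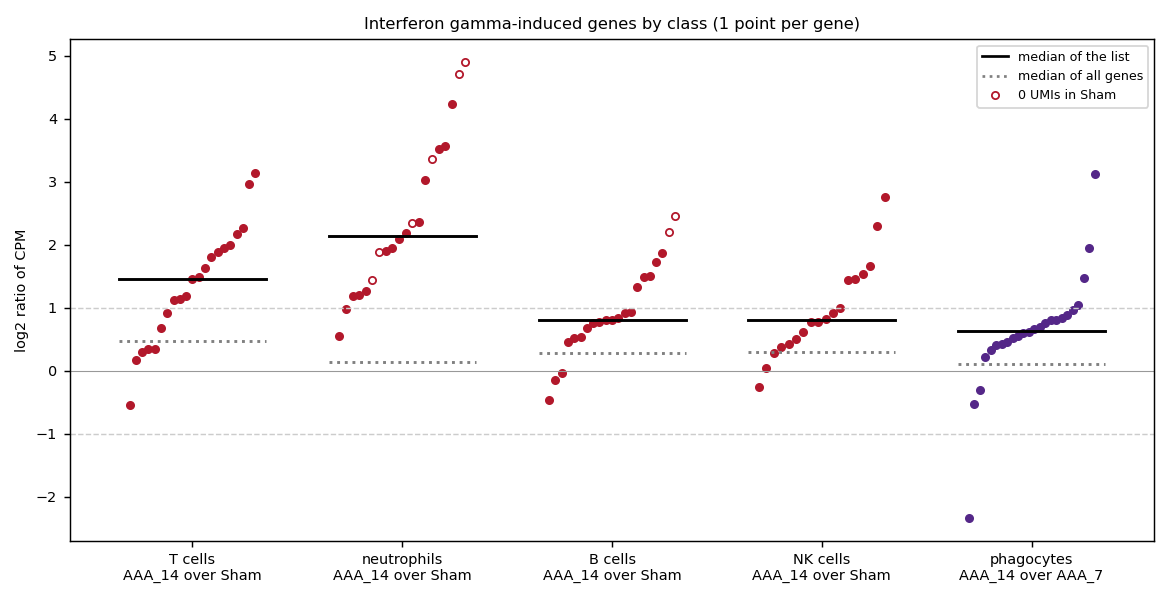
Log2 ratio of CPM for each measured gene of the interferon gamma-induced list (1 point per gene) in T cells, neutrophils, B cells and NK cells of AAA_14 over Sham and in phagocytes of AAA_14 over AAA_7, with solid lines at the list's median, dotted lines at the median of all genes and open points for 0 UMIs in Sham. The list's median lay above that of all genes in each class shown, at 2.14 against 0.14 in neutrophils and 0.64 against 0.10 in phagocytes.

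The genes most like each member were sought among 11349 genes by Pearson's r of log2(CPM + 10) over the 16 pairs of class and library with at least 50 cells, which share libraries and depth, so that r describes these pairs only. Ifng was most like Eomes (r 0.986), then Sytl3, Gzmb, Klrg1 and Fasl, and Tbx21 most like Fhl2 (0.979), Eomes, Nrarp, Klrc1 and Gm33104. Cxcr3 was most like Gbp8 (0.945), Acot7, Atp2b4, Spn and Abca2. For Irf1 the closest was Gbp2 (0.926), followed by Wbp1l, Bcl2l1, Parp10 and Pstpip1. Cxcl9 was most like Slamf8 (0.961), Cds1, P3h2, Met and Gm36486, and Cxcl10 most like Chmp3 (0.942), Ftl1-ps1, P2ry12, Oas1g and Ly6i. Of the receptor chains, Ifngr1 was most like Itgb1 (0.969), Atp2b4, Epsti1, Ccl5 and Enpp4, and Ifngr2 most like Soat1 (0.895), Gngt2, Nampt, Alcam and Cnih4.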

How the data were processed

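The authors deposited raw UMI counts per gene and barcode for 3 libraries; Cell Ranger 6.1.2 wrote them, per the file headers. Cell Ranger, Seurat and mm10 are named, without role or order, in the submitters' processing notes, and no source used here gives the aligner's settings. Per the labels' protocols, viable CD45-positive cells were bead-selected and run on a droplet chemistry that reads the 3-prime end of each RNA.

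Barcodes with at least 200 genes and at most 10% mitochondrial UMIs were kept, 9750 of 17389. Scrublet's own threshold called 0 doublets in AAA_14, 0 in AAA_7 and 2 in Sham, so the cells with the highest scores were left out of the classes instead, 224, 83 and 12. The other cells were clustered with scanpy 1.11.5 (2000 variable genes, 30 principal components, 15 neighbours, Leiden resolution 1). Clusters were named from fixed marker lists, and 2 with a second class at over 0.8 of the first score stayed unnamed. Since clusters were rebuilt, names may differ from the study's.

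CPM divide summed UMIs by the total of the class. Intervals are 95%, exact Poisson for CPM, Clopper-Pearson for shares and conditional binomial for ratios, and cover counting error only. A ratio was measured where both libraries together held at least 10 UMIs. The ratio and interval code was tested on simulated data. Gene IDs matched GENCODE vM21 positions for 99.6% of 32285 genes. TMM factors came from edgeR 4.0.16 in R 4.3.3. No group had a second library, so nothing was tested.

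The 8 genes and the lists were chosen with earlier results of these data known. The text names all 8 genes, at most 4 genes per list and comparison with the largest absolute log2 ratio, and the 5 genes most like each of the 8. Of the signalling list, 1 gene is not reported here, and counts are over the other 5. Alternatives were other mitochondrial and gene limits, doublet-scored cells kept, classes from single cells, TMM factors, centring, 5 counts added, thinning, the richest cell left out, other UMI minimums and, added after the data were seen, AAA_7 left out and ratios within clusters.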

Additional observations from a re-analysis of the deposited data

Results flagged for a closer look

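Ifng pointed opposite ways in the classes that make it. Its log2 ratio of AAA_14 over Sham was 1.22 in T cells and -0.50 in NK cells, and that of AAA_7 over Sham was 1.54 in T cells and -0.42 in NK cells. The difference between classes was not tested, and after thinning the NK values were 0.03 and 0.06.

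Ifngr2 likewise had a ratio of AAA_7 over Sham of 1.45 in neutrophils and -1.10 in T cells, with no test of the difference. Cxcl10 had a ratio of AAA_14 over AAA_7 of 0.34 in phagocytes and -2.12 in dendritic cells, also untested, and a single cell held 30.1% and 30.4% of the dendritic cell UMIs of AAA_14 and AAA_7. Cxcr3 had a ratio of AAA_14 over AAA_7 of 1.02 in dendritic cells and -1.56 in neutrophils, untested, and the neutrophil value rests on 9 and 10 UMIs.

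The filter removed 4822 barcodes of AAA_14, 267 of AAA_7 and 2550 of Sham. In these barcodes Cxcl10, Irf1, Ifngr2 and Tbx21 passed 2-fold above Sham in AAA_14 or AAA_7, with counting intervals above 0 and UMIs in both libraries. The share of all genes past 2-fold in the removed barcodes was not computed, so these genes are described and not counted. Cxcl10 was there at 92.0 CPM in AAA_14, 526 CPM in AAA_7 and 7.80 CPM in Sham, log2 ratios over Sham of 3.55 and 6.07. Irf1 was at 133 CPM in AAA_14, 170 CPM in AAA_7 and 48.0 CPM in Sham, ratios of 1.47 and 1.84. Ifngr2 had a ratio of AAA_7 over Sham of 1.35 on 32 and 320 UMIs, and Tbx21 one of 1.88 on 5 and 37 UMIs. The level of Ifng in the removed barcodes was 11.7 CPM in AAA_14, 6.53 CPM in AAA_7 and 10.3 CPM in Sham. Its ratios over Sham were 0.18 (-0.20 to 0.59) and -0.34 (-3.72 to 1.25), whose intervals hold 0.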

How the results depend on the processing

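Of the values for the main comparisons under the alternatives, 113 stayed inside the counting interval and 22 left it. The counts of induced genes, which have no such interval, are among these values and were judged by a fold limit on the count. All 22 kept their direction except that of Ifng in NK cells of AAA_14 over Sham, which was 0.030 after thinning, with TMM factors -0.84 and centred -0.80. For Ifng in T cells, AAA_14 over Sham was 1.78 with classes from single cells, 0.76 with TMM factors, 0.74 centred on the median gene and 0.77 thinned, and AAA_7 over Sham was 1.07 with TMM factors, 1.07 centred and 0.61 thinned. In T cells of AAA_14 over Sham, Tbx21 was 2.78 thinned, and Irf1 was 0.79 with TMM factors and 0.77 centred. Irf1 in neutrophils of AAA_14 over Sham was 1.91 at a mitochondrial cap of 5%, 1.03 without AAA_7 and 2.01 thinned. Cxcl10 in phagocytes of AAA_14 over AAA_7 was 0.15 with a mitochondrial limit of 5%, 0.13 with classes from single cells, 0.24 with TMM factors, 0.24 centred and 0.55 thinned. Thinned, 7 of 21 measured induced genes were higher in phagocytes of AAA_14 over AAA_7, where 6.83% of all genes were. The main setting gave 4 of 24, against 7.64%.

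Of the other values, 769 stayed inside their interval and 109 left it, and 13 values of ratios past 2-fold changed sign. Ratios under 2-fold changed sign in 50 values of 19 ratios, among them Cxcl10 in B cells of AAA_14 over Sham (between 0.25 and 4.36 where it did) and Irf1 in neutrophils of AAA_14 over AAA_7 (0.20 and 0.42). The 13 values were these. Ifng in B cells of AAA_14 over Sham was 0.80 with doublet-scored cells kept, 0.91 without AAA_7 and 0.67 without the richest cell, and of AAA_7 over Sham 0.089 with no mitochondrial limit, 2.62 with doublet-scored cells kept and 1.94 without the richest cell. Cxcl9 in B cells was -0.56 with 5 counts added for AAA_14 over Sham, and -2.56 with a mitochondrial limit of 5% and -0.94 with 5 counts added for AAA_14 over AAA_7. Cxcl9 in neutrophils of AAA_14 over Sham was -1.08 at a mitochondrial cap of 5% and -1.23 with 5 counts added, and Cxcr3 in those of AAA_7 over Sham -0.071 with 5 counts added. Cxcl10 in NK cells of AAA_14 over AAA_7 was 0.16 thinned. The causes were not tested.

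With a mitochondrial limit of 5%, Sham held 1 T cell, 16 NK cells and 3 B cells, so those ratios could not be had. Leaving out a library of a group was not possible either. No paired analysis was possible because no group has a second library. Depth limits what was seen of Cxcl9, and the number of cells limits what was seen of Sham phagocytes (11 cells) and dendritic cells (41 cells).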
